A study of Cavia porcellus with 72 samples.

Results

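The potassium channel genes of the guinea pig hippocampus were taken as every gene whose symbol starts with KCN in the count tables of 3 generations, F1, F2 and F3. They came to 66 of the 11927 genes found in any of these tables. In F1, 63 of 11651 listed genes were members, in F2 65 of 11716 and in F3 63 of 11663, and 62 were listed in all 3. By symbol, 28 coded for voltage gated subunits, 11 for inward rectifiers, 11 for two-pore channels, 7 for calcium activated channels and their sodium activated relatives, and 9 for auxiliary subunits. RNA was sequenced from the hippocampus of Dunkin-Hartley females at postnatal day 40. In the sGC lineage, pregnant F0 animals had received repeated courses of betamethasone, a synthetic glucocorticoid (sGC), and in the control lineage they had received saline. F1 animals were the offspring of those pregnancies, whereas F2 and F3 descended from them through males mated with untreated females, so only the F1 animals were themselves exposed as fetuses, with the germ cells in them from which F2 arose. The groups held 6 control and 5 sGC libraries in F1, 6 and 6 in F2, and 6 and 7 in F3, each from 1 female, and the females came from independent mothers.

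Potassium channels let potassium leave or enter a cell along its gradient and so set the resting potential, the shape of the action potential and the rate of firing. Voltage gated channels open on depolarization: Kv1 channels sit on axons and terminals, Kv4 channels carry the dendritic A-type current, and Kv7 channels carry the M-current that restrains repetitive firing. Inward rectifiers hold the membrane near rest, among them the Kir3 channels that G protein coupled receptors open, and Kir4.1, with which astrocytes take up potassium. Two-pore channels give a leak current, calcium activated channels follow calcium entry, and auxiliary subunits change the trafficking and gating of the pores. In pyramidal cells of the hippocampus these currents bound excitability and dendritic integration.

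Between 13507449 and 19767033 reads were counted per library. The 62 members tested in each generation had a median control coefficient of variation of 6.98% in F1, 6.85% in F2 and 8.05% in F3, so that small differences could pass the test where reads were many. Levels are given as CPM, read counts set to a common library size after scaling by the trimmed mean of M-values (TMM) within each generation's table. CPM are not divided by transcript length, and levels were therefore not compared between genes. KCNE1, an auxiliary subunit, had too few reads to be tested in the separate fit of any generation, with mean levels of 0.451 to 0.545 CPM. KCNQ1 and KCNV2 fell under the filter in the fit of F2 only. KCNE1, KCNQ1 and KCNV2 did pass the filter in the fit of all 36 libraries together. There were 5 sGC libraries, and no control library, whose library numbers, 32 to 36, do not follow on from those of the same generation (replicates 4 and 5 in F1, 6 in F2, and 5 and 6 in F3). These libraries and the exposure cannot be fully told apart. The results of the members and partner genes that passed are given with and without them. Shares of reads, summed levels, class medians and marker results are given with all libraries.

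The count tables were not alike in what they held for these genes. KCNAB3, KCNN1 and KCNJ13 were listed in the F2 table alone, and KCNH4 in the F1 and F3 tables but not in that of F2. KCNK7, a two-pore subunit, averaged 51.2 ± 3.4 CPM in F1 controls and 50.8 ± 2.2 in F3 controls, but 1.35 ± 0.093 in F2 controls (SD, n = 6 each). KCNIP3, which codes for the calcium binding protein KChIP3, averaged 195 ± 12 CPM in F1 controls, 197 ± 14 in F3 controls and 108 ± 6.4 in F2 controls. In all, 4 of 62 members (KCNK6, KCNK7, KCNQ1 and KCNV2) were more than 2-fold lower in F2 controls than in F1 controls, and none was so in F3 controls. Over all 11446 genes compared, 269 were more than 2-fold lower and 174 more than 2-fold higher in F2 controls than in F1 controls, against 2 and 3 in F3 controls. The cause of this difference was not tested. Levels were therefore compared within a generation, and the sGC effects of different generations only as fold changes.

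The potassium channel genes as a family took a slightly larger share of the reads in the sGC group of F1. The share was 0.557% to 0.579% in the 6 F1 control libraries (median 0.570%). It was 0.588%, 0.594%, 0.587%, 0.590% and 0.604% in the 5 F1 sGC libraries, all above the highest control. In F2 the share ran from 0.579% to 0.6005% in controls and from 0.587% to 0.603% in sGC animals, and in F3 from 0.554% to 0.585% and from 0.5678% to 0.5995%, so that the groups overlapped in both. The summed level of the voltage gated genes was 2448 to 2581 CPM in F1 controls and 2627 to 2897 CPM in F1 sGC animals. The summed level of the inward rectifiers reached 876.1 CPM in F1 controls and started at 876.9 CPM in F1 sGC animals. The sums of the two-pore, calcium activated and auxiliary genes overlapped between the groups of every generation. The sums were not tested, since the members form a list chosen with results known.

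**Figure D1:**
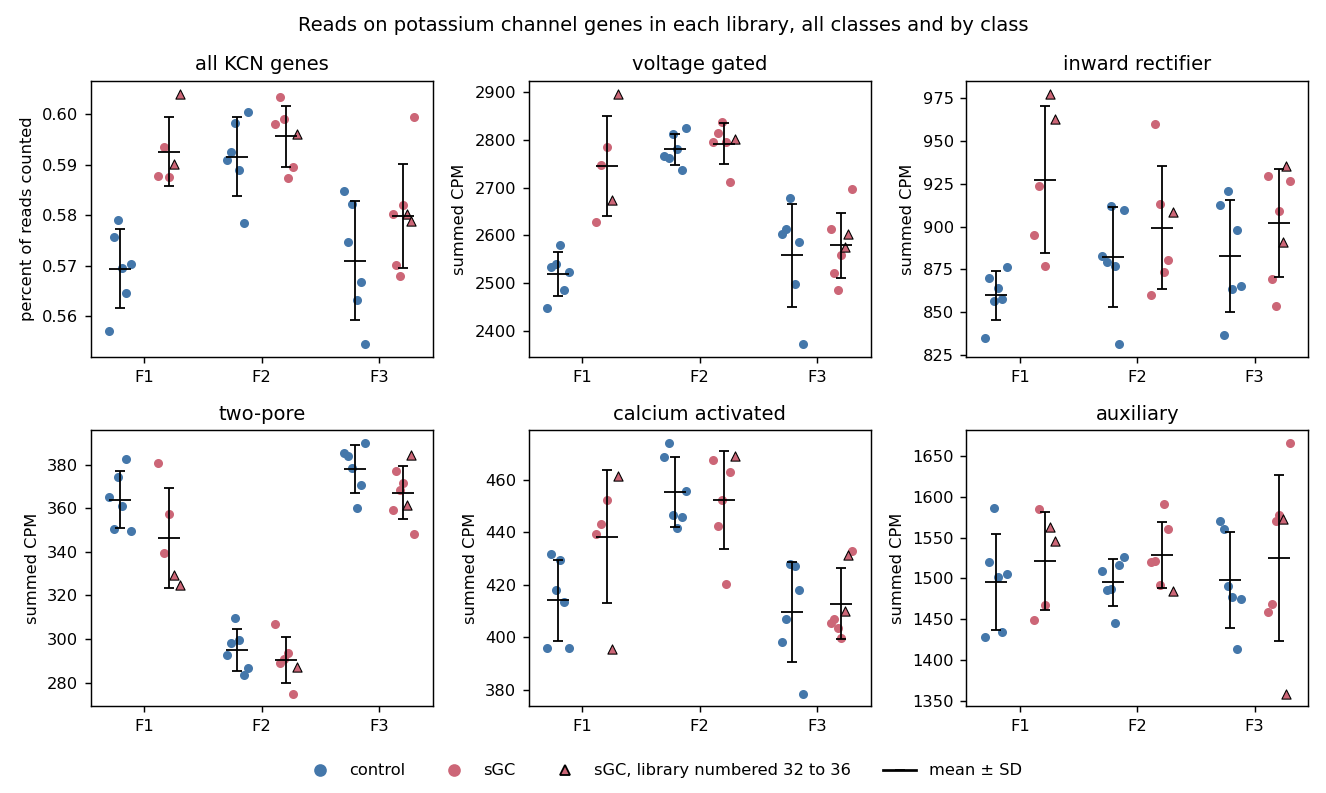
Reads on potassium channel genes in each library, as percent of the reads counted for all KCN genes and as summed CPM for each class, by generation and group; points are libraries, triangles sGC libraries numbered 32 to 36, and bars the mean ± SD. The F1 sGC libraries lie above the F1 controls for all genes and for the voltage gated genes, and the groups of F2 and F3 overlap in every panel.

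Whether prenatal sGC exposure changed the transcription of single genes was tested within each generation over all genes, with the quasi-likelihood test of edgeR and p-values adjusted by Benjamini-Hochberg. Genes are said to have passed or been called by this test, with all libraries, unless another tool or setting is named. In F1, 6 of the 62 members tested passed an adjusted p of 0.05, or 9.68%, beside 2.08% of all 11377 genes tested. Of these, 5 were higher in sGC animals (8.06% of members, beside 1.63% of all genes) and 1 was lower (1.61%, beside 0.457%). At an unadjusted p of 0.05, 16 members passed, 12 higher and 4 lower, beside 19.6% of all genes. Control and sGC libraries did not overlap for 3 members, or 4.84%, beside 4.3% of all genes. The median log2 fold change of the members was 0.033, beside -0.0055 for all genes tested.

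The classes differed in how their members were spread. In F1, 21 of 28 voltage gated genes had a positive log2 fold change, with a median of 0.09, and 4 of them passed the test, all higher. Of 10 inward rectifiers, 6 were positive, with a median of 0.10, and 1 passed in each direction. Of 11 two-pore genes, 4 were positive, with a median of -0.03, and none passed. None of the 6 calcium activated genes (median 0.06) or of the 7 auxiliary genes (median -0.00057) passed. In F2 the class medians lay between -0.0023 and 0.039, and in F3 between -0.014 and 0.081. No class was tested against another.

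**Figure D2:**
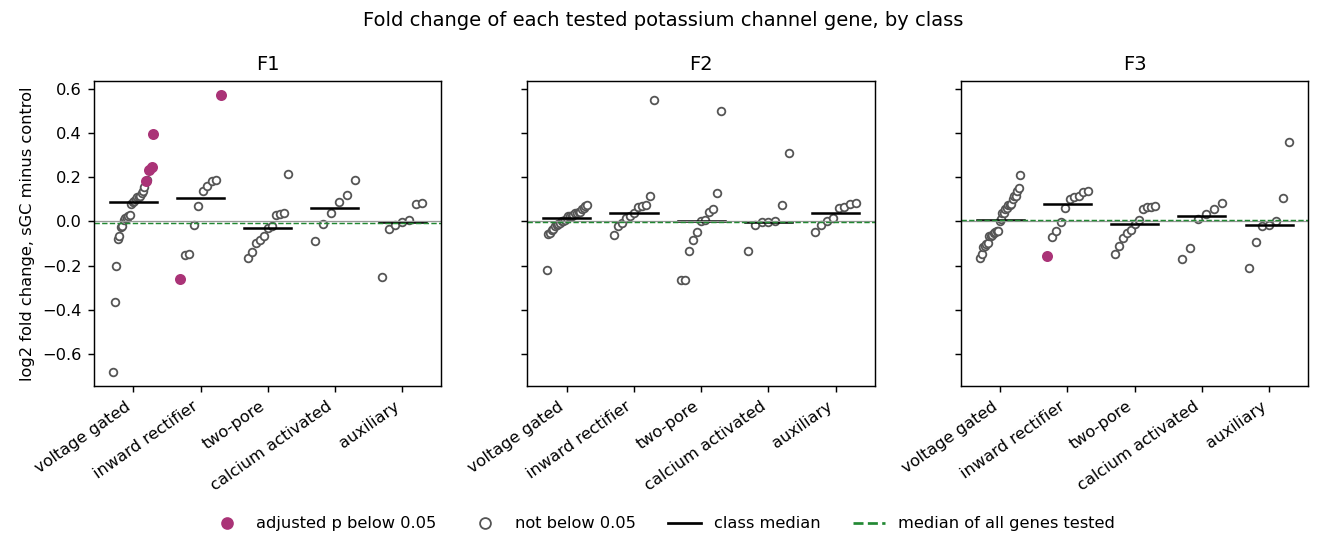
Log2 fold change (sGC minus control) of each tested potassium channel gene in F1, F2 and F3, by class, with a line at the class median and a dashed line at the median of all genes tested. Filled points passed an adjusted p of 0.05, 6 genes in F1, none in F2 and 1 in F3.

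In F1, KCNJ6 had the largest log2 fold change among the members that passed. It codes for Kir3.2 (GIRK2), a subunit of the channel through which inhibitory transmitters hyperpolarize the neuron. Its level was 106 to 138 CPM in F1 controls (median 116) and 161, 186, 174, 148 and 221 CPM in the sGC libraries. Every sGC library lay above every control. The log2 fold change was 0.57 (SE 0.09, adjusted p = 0.0082), the smallest adjusted p of any member. The other Kir3 subunits did not pass this test: KCNJ3 (Kir3.1) had 103 ± 4.9 CPM in F1 controls and 109 ± 11 in sGC animals, and KCNJ9 (Kir3.3) had 218 ± 9.6 and 197 ± 9.6 CPM (SD, n = 6 and 5). KCNJ9 had a log2 fold change of -0.15 and missed the threshold (adjusted p = 0.0926), although DESeq2 (adjusted p = 0.0277) and the fit of all 36 libraries together (adjusted p = 0.0255) called it. KCNJ5, the remaining Kir3 gene, was not analysed here. KCNJ6 kept its call without libraries 32 to 36, with a log2 fold change of 0.54 and an adjusted p of 0.00448.

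Of the Kv7 genes, KCNQ3 was higher in F1 sGC animals. KCNQ3 codes for a subunit of the M-channel (Kv7.3), and mutations of it cause seizures of the newborn in humans. KCNQ3 had 98.3 to 126 CPM in F1 controls (median 112) and 120, 145, 150, 163 and 170.9 CPM in the sGC libraries. Only sGC replicate 1 fell within the control range. The log2 fold change was 0.40 (SE 0.08, adjusted p = 0.031). Replicates 4 and 5, numbered 35 and 32, were the highest for KCNQ3, and without them its log2 fold change was 0.29 (adjusted p = 0.0975).

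Both Kv1 genes that passed in F1 code for axonal and presynaptic pores. KCNA2, coding for Kv1.2 of the juxtaparanode and the axon initial segment, had 268 to 308 CPM in F1 controls (median 286) and 312, 342, 326, 349 and 347 CPM in sGC libraries. The groups did not overlap, and the log2 fold change was 0.23 (SE 0.05, adjusted p = 0.0233). KCNA3, coding for Kv1.3 of neurons, microglia and lymphocytes, had 37.7 to 46.4 CPM in controls (median 40.9) and 48.3, 48.9, 47.3, 45.8 and 55.0 CPM in sGC libraries. Only sGC replicate 4 fell within the control range. The log2 fold change was 0.24 (SE 0.06, adjusted p = 0.0497). KCNA1, coding for Kv1.1, the usual partner of Kv1.2, had 239 ± 11 CPM in controls and 244 ± 28 in sGC animals, and its adjusted p was 0.88. Without libraries 32 to 36 the adjusted p of KCNA2 was 0.0665 and that of KCNA3 0.0855.

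KCND3 codes for Kv4.3, an A-type pore found in interneurons and granule cells of the hippocampus. It had 85.0 to 89.6 CPM in F1 controls (median 86.5) and 94.3, 98.1, 103, 94.7 and 105 CPM in sGC libraries. The groups did not overlap, although the change was small, with a log2 fold change of 0.18 (SE 0.04, adjusted p = 0.0256). It kept its call without libraries 32 to 36 (log2 fold change 0.18, adjusted p = 0.0478). KCND2, which codes for the main A-type pore of pyramidal cells, was not analysed here. KCNIP2, whose product KChIP2 binds Kv4 pores, had 572 ± 37 CPM in controls and 568 ± 43 in sGC animals.

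KCNJ4, coding for the strong inward rectifier Kir2.3 of forebrain neurons, was the 1 member called lower in F1 sGC animals. It had 73.5 to 90.9 CPM in controls (median 84.8) and 78.0, 69.4, 70.3, 67.5 and 68.0 CPM in sGC libraries. Of the sGC libraries, 4 lay below every control, and replicate 1 fell within the control range. The log2 fold change was -0.26 (SE 0.06, adjusted p = 0.0466), and without libraries 32 to 36 it was -0.22 (adjusted p = 0.132). KCNJ2, the related gene for Kir2.1, had the opposite sign, with 15.5 ± 0.93 CPM in controls and 17.7 ± 1.2 in sGC animals, and did not pass (adjusted p = 0.1278).

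**Figure D3:**
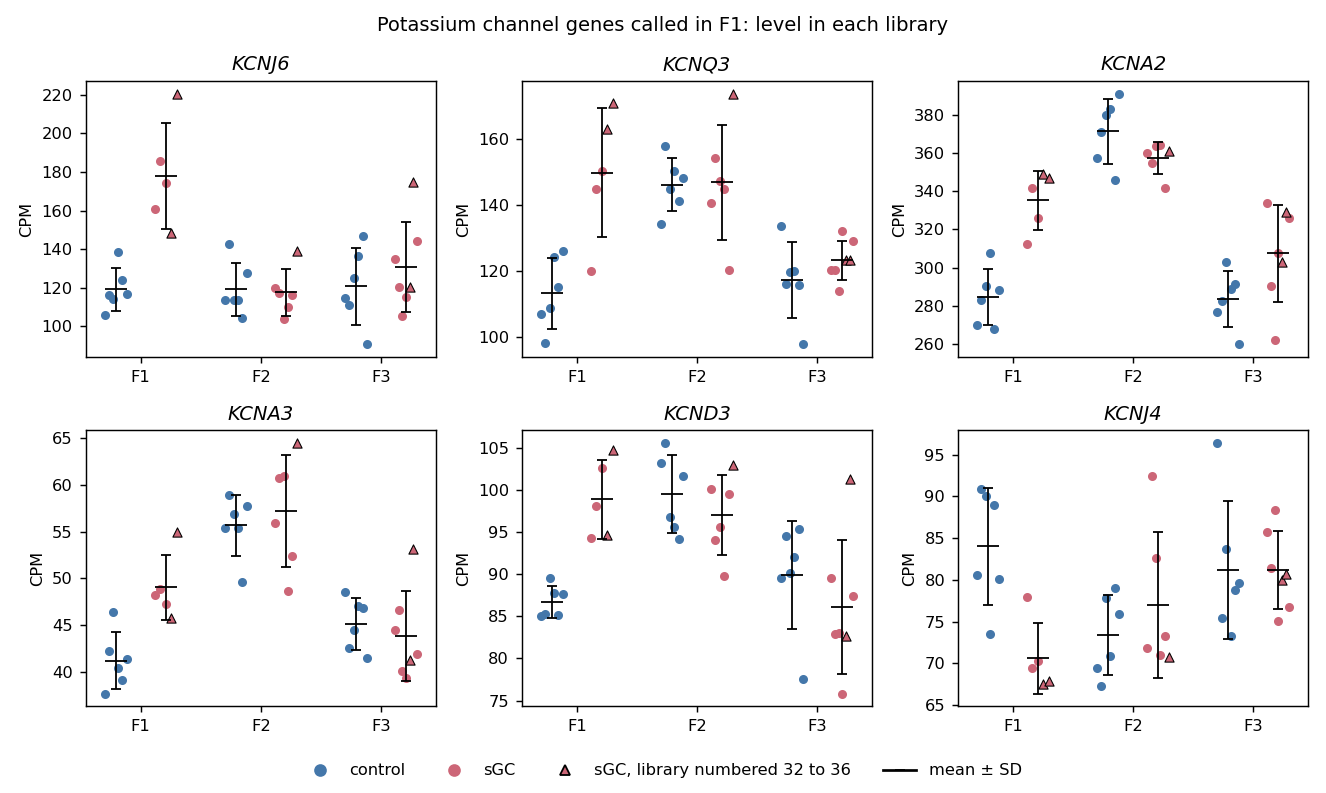
Level of KCNJ6, KCNQ3, KCNA2, KCNA3, KCND3 and KCNJ4 in CPM in each library of F1, F2 and F3; points are libraries, triangles sGC libraries numbered 32 to 36, and bars the mean ± SD. In F1 the groups do not overlap for KCNJ6, KCNA2 and KCND3, and in F2 and F3 they overlap for all 6 genes.

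The two-pore, calcium activated and auxiliary genes gave no call by the quasi-likelihood test in F1. KCNK7, a two-pore subunit with no known current of its own, had 51.2 ± 3.4 CPM in controls and 45.9 ± 1.9 in sGC animals (log2 fold change -0.16, adjusted p = 0.0981), and the fit of all 36 libraries together called it (adjusted p = 0.032). KCNMA1, the pore of the large conductance BK channel, had 199 ± 8.7 and 217 ± 16 CPM (log2 fold change 0.12, adjusted p = 0.206). KCNN2, the SK2 channel of the afterhyperpolarization, had 39.3 ± 2.9 and 37.1 ± 4.0 CPM, and KCNT1, the sodium activated Slack channel, 127.97 ± 6.9 and 132 ± 16 CPM. KCNAB1, a beta subunit of Kv1 channels, had 156 ± 6.8 and 156 ± 18 CPM. None of these passed, with adjusted p values of 0.519 for KCNN2, 0.806 for KCNT1 and 0.998 for KCNAB1.

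Only KCNJ6 was called in F1 whichever of the 11 libraries was left out, with adjusted p values of 0.00309 to 0.0268. KCNA2 and KCND3 were each called in 6 of these 11 fits, KCNQ3 in 4, and KCNA3 and KCNJ4 in 2. KCNJ6 alone was called without control replicate 1, 2 or 5 or without sGC replicate 5. Without sGC replicate 2 or 3 there were 2 calls. The direction of all 6 genes held in every such fit. Over all genes these fits gave 56 (without sGC replicate 5) to 342 calls, beside 237 with all libraries. Without libraries 32 to 36, 2 members were called, KCNJ6 and KCND3, beside 97 of 11473 genes.

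**Figure D4:**
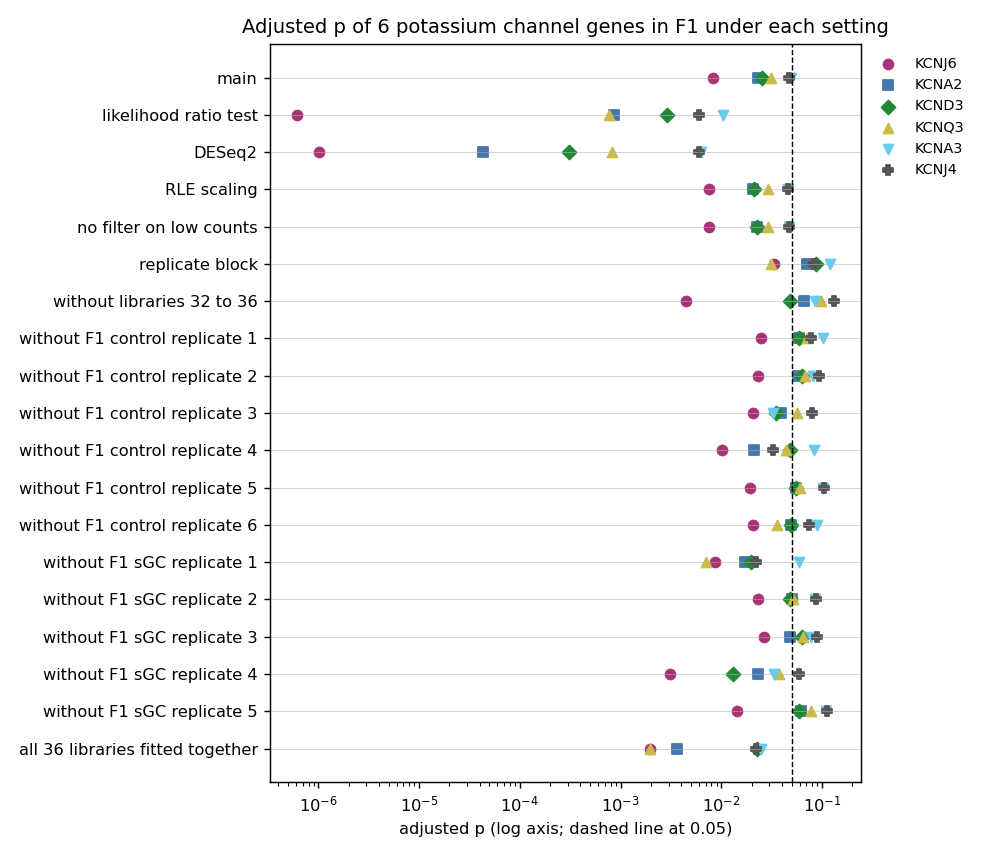
Adjusted p (log axis, dashed line at 0.05) of the 6 members called in F1 under the main test and each alternative setting, including the fits that leave out 1 library. KCNJ6 lies left of the line under every setting, while the other 5 genes cross it under several, among them the fits without control replicate 1, 2 or 5.

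Markers of other cell types moved in F1 beside these genes. Of 4 genes marking thalamic neurons, 2 were positive and RORA passed (log2 fold change 0.37, adjusted p = 0.00434), and their summed level was 45.5 to 60.5 CPM in controls and 61.7 to 72.4 CPM in sGC libraries, without overlap. All 6 meningeal fibroblast markers had a negative log2 fold change and 2 passed, LUM and DCN. Their summed level was 92.1 to 198 CPM in controls and 63.5 to 107 CPM in sGC animals. All 6 astrocyte markers analysed were positive and none passed, and their sum was 3455 to 4334 CPM in controls and 4010 to 5939 CPM in sGC animals. Markers of oligodendrocytes (4 of 4 negative), microglia (5 of 5 positive) and interneurons (6 of 8 negative) gave no call, and neither did the 7 markers of hippocampal principal neurons, 5 of them negative, whose sum was 720 to 814 CPM over all F1 libraries. The lists for oligodendrocyte precursors, endothelium and pericytes, choroid plexus and striatal neurons gave no call in F1. No marker listed in the tables was at 0 in any library. In tissue RNA, fewer cells of a type and less RNA per cell cannot be told apart, and the part of these cell types in the potassium channel results was not tested.

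In F2 no member passed edgeR's quasi-likelihood test, as none did of all 11414 genes tested (0%). At an unadjusted p of 0.05, 4 members passed, or 6.45%, beside 6.64% of all genes. The likelihood ratio test and DESeq2 called no member either. The groups did not overlap for 1 member, or 1.61%, beside 0.412% of all genes. That gene was KCNS1, a silent subunit (Kv9.1) that modifies Kv2 channels, with 18.9 to 22.6 CPM in F2 controls (mean 20.8) and 16.7 to 18.7 CPM in sGC animals (mean 17.9). Its log2 fold change was -0.22 (SE 0.06, adjusted p = 0.51). KCNK5, the acid sensitive two-pore channel TASK-2, had 1.33 to 1.88 CPM in controls (median 1.60) and 1.85 to 2.81 CPM in sGC animals (median 2.26), a log2 fold change of 0.50 that did not pass (adjusted p = 0.678). KCNK9, which codes for TASK-3, had 39.9 to 50.2 CPM in controls (median 47.8) and 28.8 to 46.1 CPM in sGC animals (median 40.3), with a log2 fold change of -0.26 (adjusted p = 0.678). KCNS2 and KCNT2, also among the smallest unadjusted p values of F2, had log2 fold changes of 0.07 and -0.13.

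The 6 genes called in F1 had small estimates in F2. The log2 fold changes were -0.020 for KCNJ6, 0.0068 for KCNQ3, -0.056 for KCNA2, 0.038 for KCNA3, -0.037 for KCND3 and 0.069 for KCNJ4, with adjusted p values of 0.769 or more. Of the 62 members tested, 52 had a log2 fold change within 0.1 of 0 in F2, against 32 in F1 and 38 in F3. The median over the members was 0.016, beside -0.00041 for all genes. KCNJ13, the Kir7.1 gene of the choroid plexus epithelium, was measured in F2 alone and had the widest spread among controls, 3.94 ± 3.9 CPM (SD, n = 6), with 5.89 ± 6.8 CPM in sGC animals. The summed level of the 3 choroid plexus markers tested in F2 varied likewise, from 25.6 to 489 CPM in controls and from 22.6 to 691 CPM in sGC animals, and its part in the KCNJ13 level was not tested.

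In F3, 1 of 62 members passed, or 1.61%, beside 5.04% of all 11359 genes tested. No member passed in the higher direction (beside 2.17% of all genes) and 1 in the lower (beside 2.87%). At an unadjusted p of 0.05, 11 members passed, 6 higher and 5 lower, beside 21.1% of all genes, and the groups did not overlap for 1 member, beside 2.71% of all genes. The median log2 fold change was 0.0041 for the members and 0.0048 for all genes.

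The gene called in F3 was KCNJ3, coding for Kir3.1 (GIRK1), the common partner of the other Kir3 subunits. It had 103 to 116 CPM in F3 controls (median 110) and 93.9 to 102.1 CPM in the 7 sGC libraries (median 98.5). Every sGC library lay below every control. The log2 fold change was -0.15 (SE 0.03, adjusted p = 0.0124), and the call held without each library in turn and without libraries 32 to 36 (adjusted p = 0.0471). KCNJ6, called in F1, had 90.8 to 146.8 CPM in F3 controls (median 120) and 105 to 175.02 CPM in F3 sGC animals (median 121), and its log2 fold change was 0.12 (adjusted p = 0.609). In F1 and F2 the log2 fold change of KCNJ3 was 0.07 and -0.06, neither past the threshold.

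Several members lay near the threshold in F3. KCNK1, the two-pore channel TWIK-1, had 116 to 129 CPM in controls (median 123) and 104 to 123 CPM in sGC animals (median 108). Of the 7 sGC libraries, 5 lay below every control, and replicates 2 and 6 fell within the control range, at 117 and 123 CPM. The log2 fold change was -0.15 (adjusted p = 0.0543). It was called without replicate 6 (adjusted p = 0.012), without libraries 32 to 36 (adjusted p = 0.0409), by the likelihood ratio test (adjusted p = 0.032) and by DESeq2 (adjusted p = 0.0185). KCNJ10, the astrocytic channel Kir4.1, had 255 to 299 CPM in controls (median 274) and 282 to 323 CPM in sGC animals (median 302), a log2 fold change of 0.14 (adjusted p = 0.087). DESeq2 called it (adjusted p = 0.0315) and the likelihood ratio test did not (adjusted p = 0.0631). KCNMB1, a beta subunit of the BK channel, had 11.7 ± 1.9 and 15.05 ± 3.1 CPM (log2 fold change 0.36, adjusted p = 0.125). KCNH3, coding for the ELK2 channel of forebrain neurons, had a log2 fold change of 0.10, and KCNV1, a silent Kv8.1 subunit, of -0.17. KCNN2 had a log2 fold change of -0.17 and KCNAB1 of -0.09. None of these last 5 genes passed in F3, with adjusted p values from 0.125 to 0.169, and KCNH3 and KCNV1 were each called in 1 of the 13 fits that left out 1 library.

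**Figure D5:**
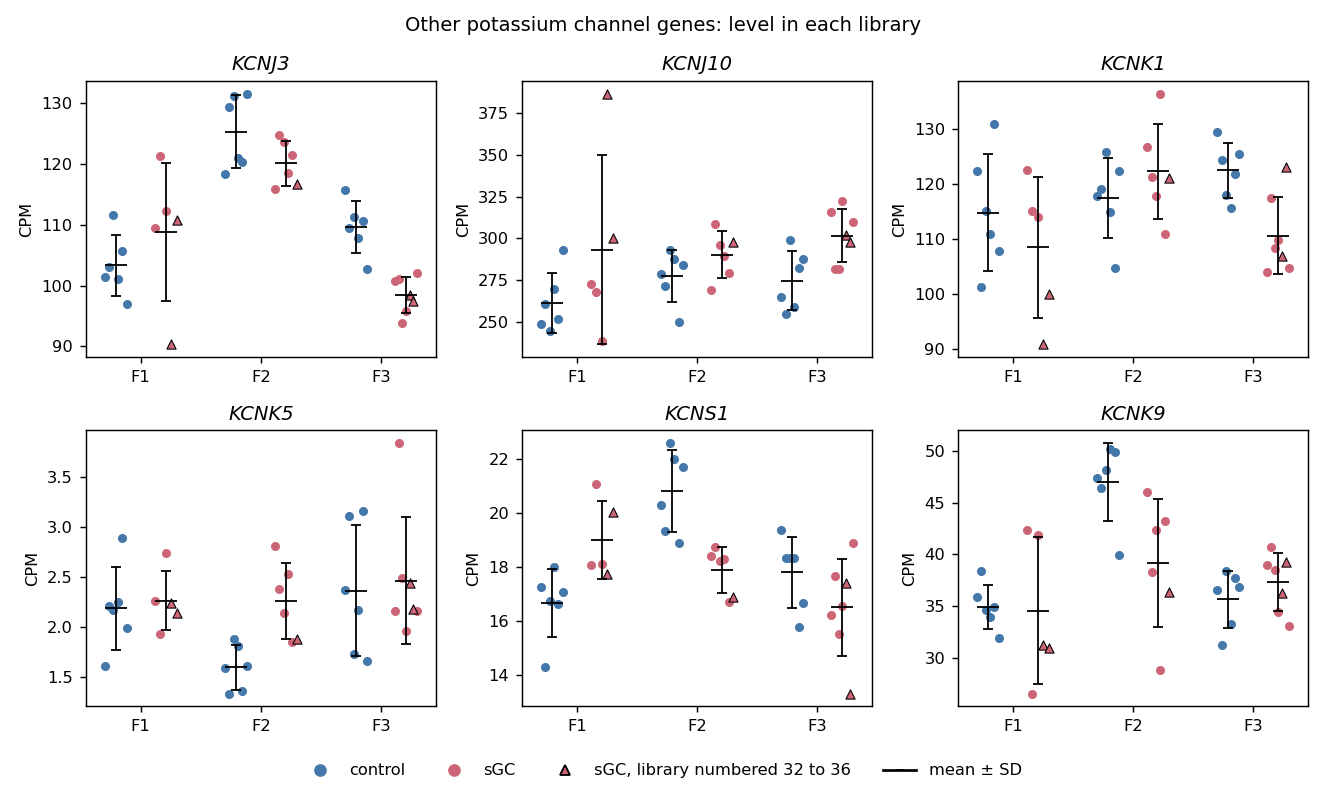
Level of KCNJ3, KCNJ10, KCNK1, KCNK5, KCNS1 and KCNK9 in CPM in each library of F1, F2 and F3; points are libraries, triangles sGC libraries numbered 32 to 36, and bars the mean ± SD. The groups do not overlap for KCNJ3 in F3 and for KCNS1 in F2, and 1 sGC library of F1 stands above the others for KCNJ10.

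Markers moved in F3 as well. All 6 astrocyte markers analysed were positive, and GJB6 passed (log2 fold change 0.18, adjusted p = 0.038). Their sum was 3737 to 4260 CPM in controls and 4154 to 5024 CPM in sGC animals. All 8 interneuron markers were negative, and GAD1 and GAD2 passed, with log2 fold changes of -0.24 and -0.20. Their sum was 1127 to 1221 CPM in controls and 950 to 1181 CPM in sGC animals. Of 6 endothelial and pericyte markers PDGFRB passed, higher in sGC animals, and the other lists of other cell types gave no call in F3. No marker of any list passed in F2. The sum of the hippocampal principal neuron markers was 776 to 831 CPM in controls and 726 to 830 CPM in sGC animals. The part of these shifts in the levels of KCNJ3, KCNJ10 and KCNK1 was not tested.

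The mean effect over the 3 generations was tested in 1 fit of all 36 libraries. It passed for 5 members, or 8.06%, beside 8.53% of all 11390 genes tested, and all 5 were higher in sGC animals. At an unadjusted p of 0.05 there were 14 members, beside 24.7% of all genes. KCNJ6 had a mean log2 effect of 0.22 (adjusted p = 0.0216), KCNQ3 of 0.16 (adjusted p = 0.0185) and KCNA2 of 0.10 (adjusted p = 0.0201). The estimates in F1, F2 and F3 were 0.57, -0.020 and 0.12 for KCNJ6 and 0.40, 0.0068 and 0.07 for KCNQ3. For KCNA2 they were 0.23, -0.056 and 0.12, so that each of these genes had its largest estimate in F1. KCNJ10 had a mean log2 effect of 0.12 (adjusted p = 0.0483), from estimates of 0.16, 0.06 and 0.14. In F1 its level was 245 to 293 CPM in controls and 272, 268, 239, 387 and 300 CPM in sGC libraries. Replicate 4, numbered 35 and at 387 CPM, also had the highest astrocyte sum, 5939 CPM, and without it the mean effect of KCNJ10 was 0.08 (adjusted p = 0.0994). KCNJ10 was called in 9 of the 36 fits that left out 1 library, and KCNJ6, KCNQ3 and KCNA2 in all 36. None of the 5 was called without libraries 32 to 36, where 54 of all genes were, and the adjusted p values of KCNJ6, KCNQ3, KCNA2 and KCNJ10 were then 0.144 to 0.385.

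Whether the effect of sGC differed between generations was tested by the interaction in the same fit. Between F2 and F1, 2 members passed, or 3.23%, beside 0.29% of all genes, and 13 passed at an unadjusted p of 0.05, beside 16.8%. For KCNA2 the log2 effect was lower in F2 than in F1 by 0.29 (log2 difference -0.29, SE 0.07, adjusted p = 0.0344). Within F1, KCNA2 had 284 ± 15 CPM in controls and 335 ± 16 in sGC animals. Within F2 it had 371 ± 17 and 357 ± 8.5 CPM, and the levels of F2 were not compared with those of F1. For KCNS1 the log2 difference was -0.41 (SE 0.10, adjusted p = 0.0457), from estimates of 0.19 in F1 and -0.22 in F2. KCNJ6 and KCNQ3 had larger or like differences, -0.60 and -0.40, and missed the threshold (adjusted p = 0.0556 and 0.0621). The likelihood ratio test and DESeq2 called both, and KCNA2 with them, whereas KCNS1 was called by the likelihood ratio test, had no adjusted p from DESeq2 and missed the threshold under RLE scaling (adjusted p = 0.0504). Without libraries 32 to 36, KCNA2 and KCNS1 missed it (adjusted p = 0.0637 and 0.0509) and KCNJ6 passed. KCNA2 passed in 22 and KCNS1 in 17 of the 36 fits that left out 1 library.

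Between F3 and F1 and between F3 and F2, edgeR's quasi-likelihood test called no member and none of all genes (0% in both). At an unadjusted p of 0.05, 15 members differed between F3 and F1, beside 13.1% of all genes, and 3 between F3 and F2, beside 9.09%. DESeq2 called 1 member between F3 and F1, KCNJ3, beside 67 of 11390 genes, and none between F3 and F2. For KCNJ3 the log2 difference between F3 and F1 was -0.23 (SE 0.06, adjusted p = 0.124) and for KCNJ6 -0.46 (SE 0.15, adjusted p = 0.197). The calls of KCNJ6 in F1 and of KCNJ3 in F3 were thus not shown by this test to differ between these generations. That count turned on the libraries: without F1 sGC replicate 4 there were 6 members called between F3 and F1, and without libraries 32 to 36 also 6, KCNJ3 and KCNJ6 among both. Calls over all genes rose too, to 431 of 11418 without libraries 32 to 36. They ran from 0 to 454 over the fits that left out 1 library. Comparisons between generations share the libraries of the generation they have in common.

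Grouped by the current they carry, the F1 calls fell to the Kv1, Kv4, Kv7, Kir2 and Kir3 genes. Of the 4 Kv7 genes of the M-current, KCNQ1 not being among them, 3 were positive in F1 (median 0.13) and KCNQ3 passed. The summed level of these 4 genes was 739 to 787 CPM in controls and 799 to 947 CPM in sGC libraries, without overlap. Of 6 axonal Kv1 genes, alpha and beta subunits together, 5 were positive and KCNA2 and KCNA3 passed. Of 5 genes of the Kv4 current, KCND3 passed. All 4 Kv3 genes, which support fast spiking, were positive, with a median of 0.11, and none passed, KCNC1 having 123 ± 1.4 CPM in controls and 133 ± 14 in sGC animals. Of 8 genes for Kv2 channels and silent subunits none passed the quasi-likelihood test in F1, while the likelihood ratio test called KCNF1, a silent subunit. Among them KCNG1 had 29.2 ± 2.6 CPM in controls and 25.6 ± 5.2 in sGC animals. Of 10 genes for two-pore leak channels none passed the quasi-likelihood test in any generation, although KCNK1 was called in F3 under the settings named above. KCNK2 (TREK-1) had 25.6 ± 2.1 and 24.6 ± 2.9 CPM in F1. Of the Kir6 (2 genes), BK (2), SK (3), Slack and Slick (2) and EAG, ERG and ELK (5) genes tested in F1, none passed the quasi-likelihood test with all libraries in F1 or in another generation. The glial inward rectifiers KCNJ10 and KCNJ16 were positive in all 3 generations and passed the quasi-likelihood test in none. DESeq2 called KCNJ10 in F3, and without libraries 32 to 36 its log2 fold change in F1 was -0.012.

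Genes outside the family whose products bind or anchor these channels were looked at in the same way. Of 21 such genes tested, none passed in F1 or F2 (beside 2.08% and 0% of all genes). In F3, 3 passed, all lower, beside 5.04% of all genes called and 2.87% called lower. EPB41L3, a cytoskeletal protein that anchors Kv1 channels at the juxtaparanode, had a log2 fold change of -0.23 (SE 0.03, adjusted p = 0.00269), and ADAM23, of the LGI1 receptor complex near Kv1 channels, of -0.16 (SE 0.03, adjusted p = 0.00902). DPP6, an auxiliary subunit of Kv4 channels, had a log2 fold change of -0.15 (SE 0.04, adjusted p = 0.0198). In F3, 17 of the 21 were negative, with a median of -0.092, beside 0.0048 for all genes. The Kv1 pores KCNA1, KCNA2 and KCNA3 themselves had log2 fold changes of -0.05, 0.12 and -0.04 in F3, and none passed. ADAM23 and EPB41L3 kept their calls without libraries 32 to 36 (adjusted p = 0.0358 and 0.0147), and DPP6 did not (adjusted p = 0.0731).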

How the data were processed

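RNA libraries were made by the study from total RNA of right hippocampus with a TruSeq V2 mRNA kit, which does not keep strand, and sequenced as single reads. Reads of overlapping or antisense genes cannot be told apart. The processing notes name TopHat2 and edgeR. The counting tool, annotation and genome build are not given in the sources used here. The deposited tables held raw counts per gene and library, 1 table per generation, beside columns of the authors' own comparison (fold change, mean level, test statistic and p-values), which were not used. The methylation tables held the authors' comparison alone and were not used.

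Genes passing filterByExpr were fitted per generation with edgeR 4.0.16 in R 4.3.3 (TMM scaling, quasi-likelihood test of sGC against control, Benjamini-Hochberg adjustment over all genes tested, threshold 0.05). Mean and interaction effects came from 1 fit of all 36 libraries over genes in all 3 tables. The study's likelihood ratio test, DESeq2 1.42.0, RLE scaling, no filter, a replicate block and leaving out libraries were alternatives. SE were derived from the log2 fold change and the test statistic. Groups and replicate numbers came from the sample titles and characteristics. Each library was 1 animal, and no pair of libraries of a group agreed within sampling noise (chi-square per degree of freedom 2.11 to 28.9). The depth of 13507449 to 19767033 reads gave a tested member a median of 9 to 9490 reads per library. The fits were tested on simulated data.

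The members, classes and lists of currents, partners and markers were chosen with earlier results of these data known. Named were the members that passed a test, the 3 higher and 3 lower members of smallest p in each generation, 21 genes set by role (of which KCND2 and KCNMB4 were not analysed here), the member with most reads in each class, and partner genes that passed. Some members that the rule names are not reported here. Other genes named in passing were chosen after their values were seen.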

Additional observations from a re-analysis of the deposited data

Results flagged for a closer look

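Among 9 genes that passed a test, 54 groups of 5 to 7 libraries were examined for a library far from the others, of which chance marks about 1 in 20. Of these, 2 were marked. KCNJ4 in F1 sGC replicate 1 was at 78.0 CPM, with the next library of its group at 70.3 CPM. KCND3 in F3 control replicate 6 was at 77.6 CPM, with the next at 89.6 CPM.

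There were 2 genes marked for a difference in the sGC effect between generations. The log2 difference of F2 minus F1 was -0.29 for KCNA2 (adjusted p = 0.0344, edgeR's quasi-likelihood test) and -0.41 for KCNS1 (adjusted p = 0.0457). In F1 all 5 sGC libraries lay above the control mean for both genes, and in F2 all 6 lay below it for both.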

How the results depend on the processing

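The number of members called in F1 was 6, and 6 to 9 under the likelihood ratio test, DESeq2, RLE scaling, no filter and the fit of all 36 libraries together. It was 2 without libraries 32 to 36, 2 with the replicate block and 1 to 6 with 1 library left out. Calls over all genes moved as well. In F1 they were 237 of 11377 by the main test, 598 by the likelihood ratio test, 658 by DESeq2 and 242 under RLE scaling. They were 234 with no filter, 853 in the fit of all 36 libraries, 97 without libraries 32 to 36 and 68 with the replicate block. With 1 library left out they were 56 to 342. In F3 it was 1 against 2 (likelihood ratio test), 3 (DESeq2), 2 (without libraries 32 to 36), 0 (replicate block) and 1 to 3 with 1 library left out. In F2 it was 0 under every setting. The mean effect gave 5 calls, 3 with the replicate block, 0 without libraries 32 to 36 and 4 to 7 with 1 library left out. Over all genes it gave 971 of 11390, 856, 54 and 539 to 1192 calls in the same order. The interaction of F2 and F1 gave 2 calls, against 4 under the likelihood ratio test and under DESeq2, 1 under RLE scaling, 0 with the replicate block, 1 without libraries 32 to 36 and 0 to 5 with 1 library left out. Over all genes it gave 33 calls, against 168, 270, 33, 4, 68 and 0 to 219 in the same order. The interaction of F3 and F1 gave 0, against 1 under DESeq2, 6 without libraries 32 to 36 and 0 to 6 with 1 library left out. Over all genes it gave 0, against 67, 431 and 0 to 454 in the same order. The interaction of F3 and F2 gave 0 under every setting. The cause of these changes was not tested, and the fits that leave libraries out also hold fewer libraries. The median log2 fold change of the members ran from 0.019 to 0.050 in F1, 0.0096 to 0.035 in F2 and -0.015 to 0.025 in F3 with 1 library left out.

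Without libraries 32 to 36, KCNJ10 in F1 turned from 0.16 to -0.012, and KCNQ3 in F2 from 0.0068 to -0.048. The other signs that turned were of estimates within 0.1 of 0. KCNJ4 in F3 was -0.00091, against 0.00023 under DESeq2, 0.00027 under RLE scaling, 0.0048 without those libraries and 0.016 with the replicate block. With 1 library left out, KCNJ4 in F3 ran from -0.030 to 0.054, KCNJ6 in F2 from -0.075 to 0.038 and KCNQ3 in F2 from -0.048 to 0.057. The replicate block left KCNJ6 and KCNQ3 called in F1 and ended the call of KCNJ3 in F3 (adjusted p = 0.0546). The deviations of libraries with the same replicate number correlated at -0.37 to 0.30. The correlation was above 0.1 for 2 of 5 numbers in F1, 1 of 6 in F2 and 0 of 6 in F3. So few pairs cannot show whether the number pairs libraries. Calls were made at log2 fold changes as small as 0.18 (KCND3 in F1) and -0.15 (KCNJ3 in F3). KCNK5 in F2 (0.50) and KCNV2 in F1 (-0.68), with a median of 28.5 and 15 reads, were not called. In F2 the quasi-likelihood test called no gene, and KCNK9 (-0.26), with a median of 680.5 reads, was not called either. The part of depth was not tested.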
